A study of Mus musculus with 4 samples.

Results

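Collagens, laminins and the proteins that organise them form the scaffold outside cells, and 37 such genes were followed in mouse liver lacking Baf60a. They were chosen by name and function, with earlier results of these data known. The list holds fibrillar collagens, collagens of basement membranes and microfibrils, laminins, glycoproteins and proteoglycans. It also holds cross-linking enzymes, matrix proteases with their inhibitors, and genes of stellate cell activation. Of the 37 genes, 35 had a value, out of 18193 genes measured. Fbn1 and Loxl2 are not analysed here, Loxl2 because its probe sets were annotated to more than 1 gene.

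C57BL/6 mice received a high-fat diet for 10 weeks from 6 weeks of age, and livers were taken after a night without food. Wild-type (WT) mice were compared with mice whose Baf60a was deleted in the liver (Baf60a LKO), 2 Affymetrix whole-genome mouse arrays per group, each with its own pool of liver RNA. The number of mice in a pool and the promoter that drove Cre, the recombinase used for such deletions, are not given in the sources used here. The Smarcd1 gene encodes BAF60a, one of the proteins of SWI/SNF, a complex that moves nucleosomes.

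In liver, most matrix is made by stellate cells, which lie between hepatocytes and the sinusoidal endothelium and store vitamin A at rest. On injury they turn into contractile myofibroblasts under TGF-beta and PDGF, express smooth muscle actin and lay down collagens I and III, the main fibres of scar tissue. Collagen IV and laminins build basement membranes, LOX enzymes cross-link fibres, and the balance of matrix metalloproteinases and TIMPs sets how fast matrix is removed.

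Values are log2 expression after robust multi-array average (RMA), so a difference of 1 is a 2-fold change. Each gene was read on its brightest probe set, and groups were compared with limma across all genes, where passing means a Benjamini-Hochberg adjusted p under 0.05. Smarcd1 read 5.62 and 5.88 in WT and 5.34 and 5.30 in Baf60a LKO (-0.43 ± 0.14, SE, limma adjusted p = 0.410), on a probe set whose place relative to the deletion is not known. A control probe set for Cre on the array, the one with the largest difference, read 2.80 and 2.48 in WT and 5.87 and 6.22 in Baf60a LKO. The other Cre probe sets were higher in Baf60a LKO by 2.08, 1.26 and 0.65. Array medians lay between 4.19 and 4.27. Over probe sets, correlations of 0.987 to 0.991 tied WT replicate 1 to the rest, against 0.993 to 0.996 for pairs without it. The 41 bacterial control probe sets, a gauge of background, had 95th percentiles of 3.02 to 3.42, and the probe sets used for the 35 genes read above these on every array.

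None of the 35 matrix genes passed (0 of 35, limma), beside 88 of all 18193 genes, 0.484%. With array medians subtracted, the split of all calls moved from 43 higher and 45 lower to 91 higher and 63 lower, and the matrix genes still gave 0 calls. At an unadjusted p under 0.05 there were 4 matrix genes (Col4a2 higher, Col1a2, Col3a1 and Postn lower), 11.4% of them, beside 10.2% of all genes (5.76% higher and 4.42% lower). Values in Baf60a LKO lay above both WT values on both arrays for 5 matrix genes (14.3%) and below them for 10 (28.6%), 42.9% together. Over all genes the groups did not overlap for 42.4%, 22.8% higher and 19.6% lower. The total is thus near the background, while the share was smaller among higher genes and larger among lower ones, a split that was not tested. The median difference of the 35 genes was -0.02, beside 0.00 over all genes, with 15 genes positive and 20 negative. The median of the 35 absolute differences was 0.13, beside 0.14 over all genes. In 11 of the 35, or 31.4%, the difference between genotypes was larger than the difference between replicates in both groups, beside 28.5% of all genes.

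The intervals give, for each gene taken alone and on the probe set used, a range for the difference. For all 35 genes the 95% interval of the difference, not adjusted for the number of genes, lay within a 2-fold change either way, as it did for 17207 of the 18193 genes. For 24 of the 35 it lay within 1.5-fold, as it did for 11674 of the 18193 genes. In whole liver RNA, fewer cells of a type and less RNA per cell cannot be told apart.

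**Figure D1:**
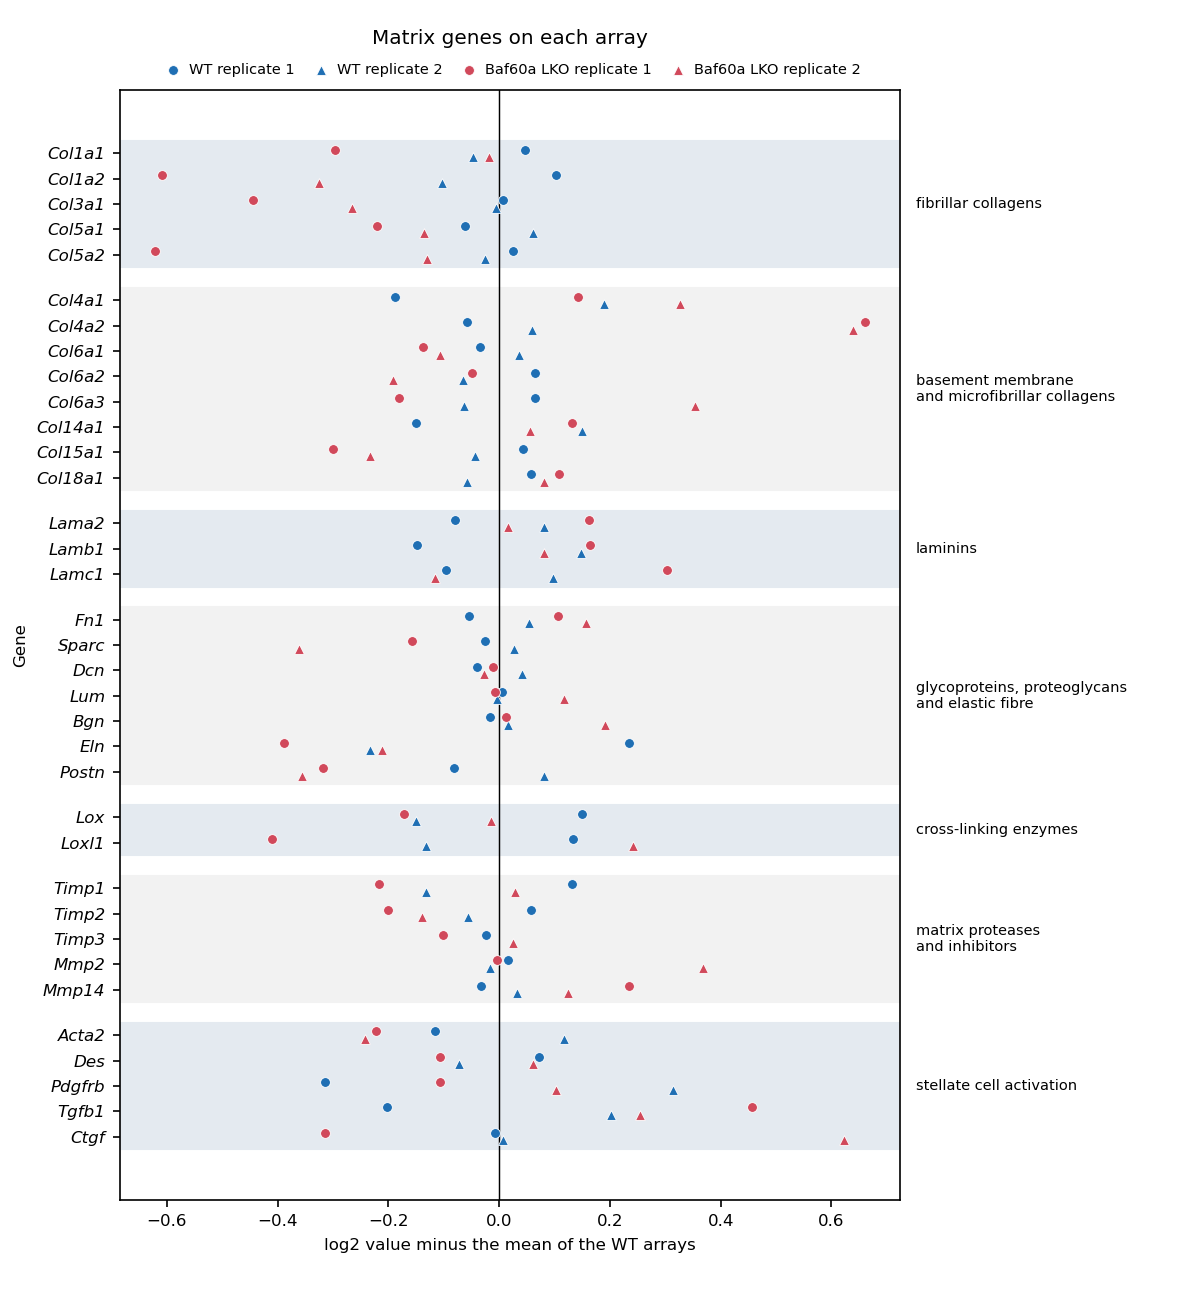
Each point is 1 array's log2 value of a gene minus the mean of the WT arrays (horizontal axis), with genes in rows by role; blue marks WT, red Baf60a LKO, circles replicate 1 and triangles replicate 2. Red points lie left of both blue points for 4 of the 5 fibrillar collagens, and far right for Col4a2, at 7.14 and 7.12 against 6.42 and 6.54.

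**Figure D2:**
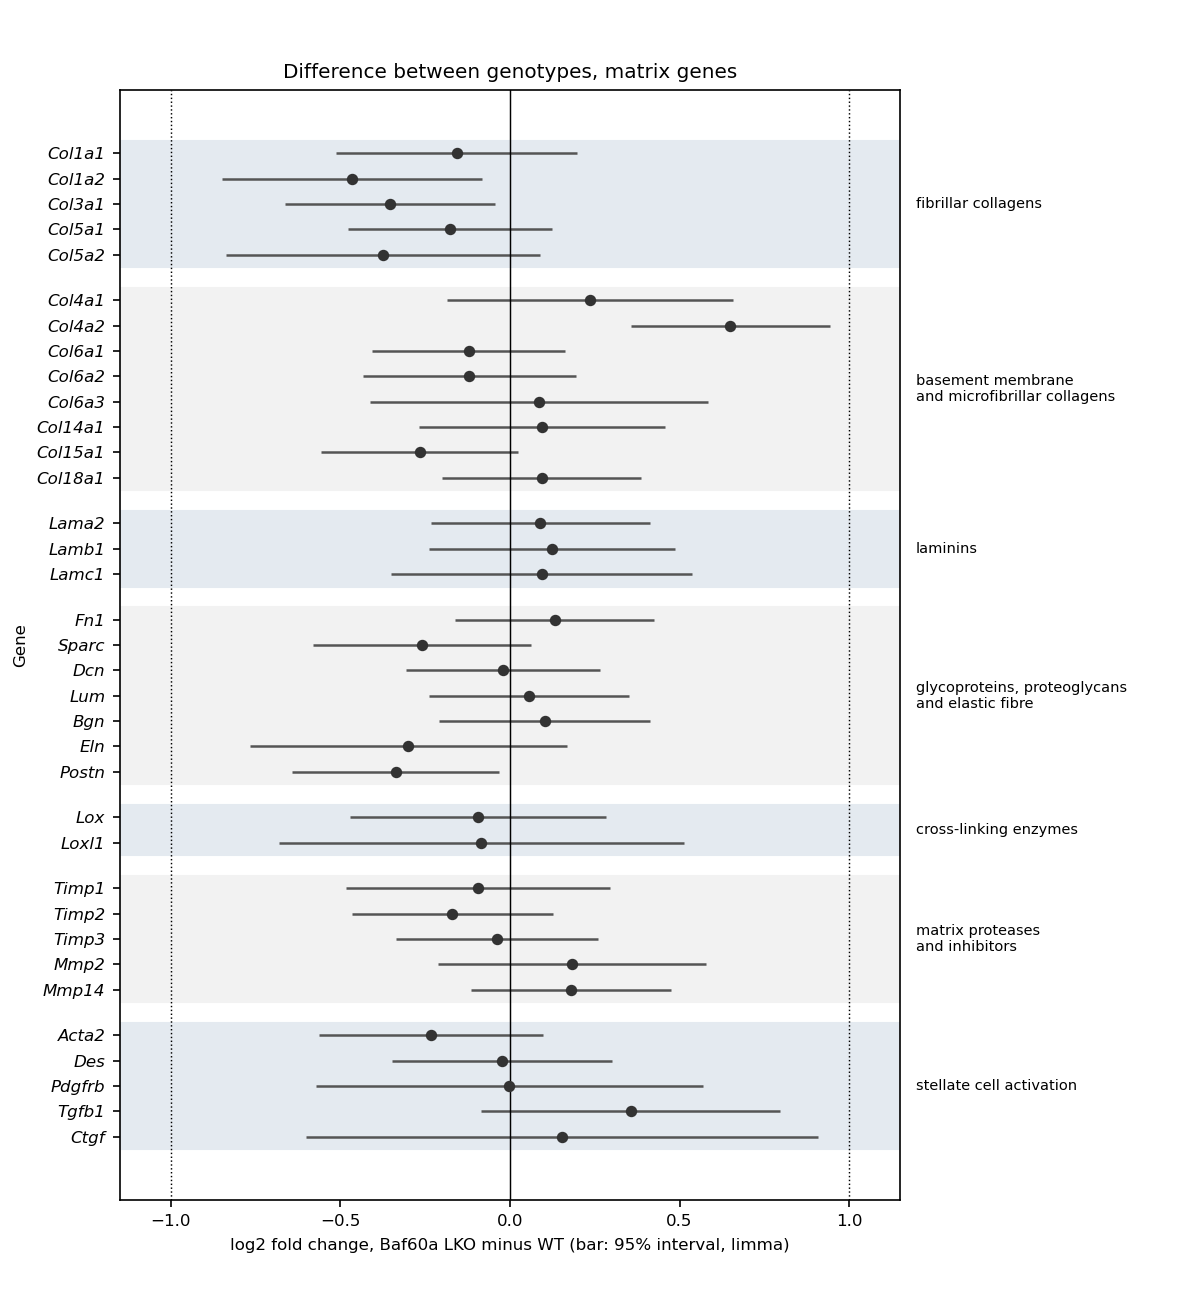
Points are log2 fold changes of Baf60a LKO minus WT and bars their 95% intervals from limma, with dotted lines at a 2-fold change. All 35 bars lie between the dotted lines, and those of Col4a2, Col1a2, Col3a1 and Postn do not cross 0.

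Collagen IV gave the largest difference in the list. Col4a2 and Col4a1 encode the alpha-2 and alpha-1 chains that wind into the most common collagen IV molecule, and the genes lie head to head and share a promoter region. Their RefSeq promoter windows (250 bases before to 50 after the annotated start, GRCm38.p6) overlap by 78 bases, shown in capitals. Both are given because the windows share this stretch. The annotated starts of both genes lie within it, and the genes overlap there by 22 bases. The Col4a2 window is chr8:11312555-11312854, plus strand, and the Col4a1 window is chr8:11312777-11313076, minus strand, each 5′ to 3′ on its own strand.
Col4a2: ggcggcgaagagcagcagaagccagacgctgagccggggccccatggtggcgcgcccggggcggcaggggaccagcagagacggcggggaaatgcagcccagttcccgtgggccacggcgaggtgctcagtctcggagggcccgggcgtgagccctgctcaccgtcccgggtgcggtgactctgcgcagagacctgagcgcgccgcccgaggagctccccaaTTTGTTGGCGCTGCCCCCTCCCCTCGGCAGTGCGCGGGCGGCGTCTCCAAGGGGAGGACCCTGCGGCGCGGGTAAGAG
Col4a1: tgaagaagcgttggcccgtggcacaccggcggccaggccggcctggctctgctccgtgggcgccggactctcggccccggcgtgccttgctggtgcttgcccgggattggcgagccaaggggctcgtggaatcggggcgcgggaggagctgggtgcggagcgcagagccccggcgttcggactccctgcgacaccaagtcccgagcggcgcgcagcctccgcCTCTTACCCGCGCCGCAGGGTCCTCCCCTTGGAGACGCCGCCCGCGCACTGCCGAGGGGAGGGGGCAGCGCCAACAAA

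Col4a2 read 6.42 and 6.54 in WT and 7.14 and 7.12 in Baf60a LKO. Both Baf60a LKO arrays lay above both WT arrays, a 1.57-fold difference that did not pass (0.65 ± 0.12, interval 0.36 to 0.94, limma adjusted p = 0.154). The value was 0.59 to 0.71 with any 1 array left out. It stayed positive under all 14 alternatives, with no call in any (lowest limma adjusted p 0.0714, among the brighter 50% of genes). Only the other normalizations could have turned this sign, and the lowest value under any alternative was 0.54. Col4a2 had no other probe set, and an array left out cannot turn a sign where groups do not overlap. The remaining settings leave the difference as it is. Col4a1 read 7.34 and 7.71 in WT and 7.67 and 7.85 in Baf60a LKO, with overlapping groups (0.24 ± 0.17, interval -0.19 to 0.66, adjusted p = 0.652). Its other probe set differed by 0.07. The intervals of the paired genes overlap, and the difference between them was not tested.

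The remaining collagens outside the fibrillar class differed by less than Col4a2. Col6a1 and Col6a2, neighbours on chromosome 10 whose chains join that of Col6a3 in microfibrils, differed by -0.12 each. Col6a3 differed by 0.09, and its sign turned after a further quantile or loess step. Col15a1 and Col18a1 encode basement membrane collagens, the latter made by hepatocytes and the source of endostatin. Col15a1 read 4.78 and 4.69 in WT and 4.43 and 4.50 in Baf60a LKO (-0.27 ± 0.12, limma adjusted p = 0.514), below WT on both arrays. Col18a1 read 11.22 and 11.11 in WT and 11.27 and 11.25 in Baf60a LKO (0.09 ± 0.12, adjusted p = 0.794). Col14a1, a collagen on the surface of fibrils, read 7.59 and 7.89 in WT and 7.87 and 7.80 in Baf60a LKO, with overlapping groups (0.09 ± 0.15, adjusted p = 0.838). Another of its probe sets gave 0.01, and a further one gave -0.62, where it read 3.52 and 2.80 in WT and 2.37 and 2.69 in Baf60a LKO, down to the level of the bacterial controls. Of the 8 genes in this class, 5 were positive and 3 negative.

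All 5 fibrillar collagens had negative differences, with a median of -0.35, and 4 of them did not overlap between groups, against 19.6% of all genes that were lower without overlap. None passed (0 of 5, limma, 2 at an unadjusted p under 0.05). Col1a2, a chain of collagen I, read 8.26 and 8.05 in WT and 7.54 and 7.83 in Baf60a LKO (-0.47 ± 0.15, interval -0.85 to -0.08, adjusted p = 0.420). Col3a1, the chain of collagen III, read 8.70 and 8.68 in WT and 8.25 and 8.42 in Baf60a LKO (-0.35 ± 0.12, adjusted p = 0.441). In both genes the higher Baf60a LKO array lay below the lower WT array. Col5a2, a chain of the collagen V that starts fibrils, read 5.22 and 5.17 in WT and 4.58 and 5.07 in Baf60a LKO (-0.38 ± 0.19, adjusted p = 0.554). Baf60a LKO replicate 1 was the low array here: the difference was -0.13 with that array left out and -0.62 with the other Baf60a LKO array left out. Col5a1 differed by -0.18 ± 0.12. Col5a3, the other chain of collagen V and not among the 5, lay the opposite way, at 6.32 and 6.64 in WT and 6.72 and 6.87 in Baf60a LKO, without overlap (0.32 ± 0.15, adjusted p = 0.550). Col1a1, the partner of Col1a2, read 5.02 and 4.93 in WT and 4.68 and 4.96 in Baf60a LKO, so its groups overlapped (-0.16 ± 0.14, adjusted p = 0.721).

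The weight of Baf60a LKO replicate 1 ran through the class: leaving it out moved the median of the 5 to -0.14, and leaving out the other Baf60a LKO array moved it to -0.44. All signs stayed negative under every alternative, although the brighter 50% of genes held only 2 of the 5. Part of this was fixed in advance. Leaving out an array cannot turn a sign where groups do not overlap. Settings that change only the test, the threshold or the genes kept leave the difference as it is. Second probe sets gave -0.43 for Col1a2, -0.27 for Col3a1, -0.20 for Col5a2, -0.09 for Col1a1 and -0.46 and -0.40 for Col5a1. Those of Col3a1 and Col5a2 read close to or below the bacterial controls. A further one for Col1a2, also at that level, gave 0.03. Col3a1 and Col5a2 are neighbours on chromosome 1, and whether this tied their differences was not tested. All 5 genes were read from the same pools, so they are not fully separate observations. Markers of resting stellate cells were read as well, over 12 genes, of which Dcn is also a matrix gene of the list. Their median was -0.02 and none passed (0 of 12, limma, 0 at an unadjusted p under 0.05). Without overlap, 2 were lower (Lrat at -0.17 and Hand2 at -0.07) and 1 higher (Colec11 at 0.21), beside 19.6% and 22.8% of all genes. Without Dcn, the summed linear level of the other 11 markers was 3044 and 3233 in WT and 3263 and 2964 in Baf60a LKO, with overlapping groups. The part of stellate cell number in the collagen values was not tested.

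The promoter windows of Col1a2 and Col3a1 are printed because these genes had the lowest p-values of the class. Capitals mark CCAAT and TATAAA on either strand. The Col1a2 window is chr6:4505368-4505667 and that of Col3a1 is chr1:45311288-45311587, both on the plus strand.
Col1a2: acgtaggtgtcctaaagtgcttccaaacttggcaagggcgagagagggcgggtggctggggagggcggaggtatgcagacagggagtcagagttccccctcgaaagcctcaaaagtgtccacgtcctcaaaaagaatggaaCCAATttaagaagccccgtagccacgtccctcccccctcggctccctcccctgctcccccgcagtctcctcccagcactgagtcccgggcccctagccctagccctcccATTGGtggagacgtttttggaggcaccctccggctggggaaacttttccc
Col3a1: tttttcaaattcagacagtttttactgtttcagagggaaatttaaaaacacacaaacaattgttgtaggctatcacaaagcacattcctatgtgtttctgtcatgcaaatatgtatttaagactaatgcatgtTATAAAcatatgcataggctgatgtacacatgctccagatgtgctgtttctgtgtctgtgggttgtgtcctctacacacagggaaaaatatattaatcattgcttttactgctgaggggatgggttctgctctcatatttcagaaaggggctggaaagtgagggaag

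RefSeq gave windows for 22 of the 35 genes, 25 in all. Not matched were Col1a1, Col5a2, Col14a1, Lamc1, Fn1, Dcn, Lum, Eln, Lox, Loxl1, Mmp2, Pdgfrb and Ctgf. CCAAT, in either direction the core of a common promoter box, stood in the windows of Col1a2, Col4a1 and Col4a2 and not in that of Col3a1. It stood in 9 of the 25 windows and in 37.4% of 32851 windows of all genes. TATAAA stood in 2 of the 25, those of Col3a1 and Postn, against 13.6%. GGGCGG, the GC box, stood in 16 of the 25, or 64.0%, against 35.7%, among them Col1a2, Col4a1 and Col4a2. CAGAC, the core that SMAD proteins bind, stood in 14, against 49.6%, among them Col1a2, Col3a1 and Col4a2. The windows of Col4a2 and Col4a1 were 73.7% and 74% G or C, that of Col1a2 61.0% and that of Col3a1 37.7%, with a median of 52.7% over all. These matches describe letters in a window and do not show binding.

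Laminins are the cross-shaped proteins of basement membranes. Lama2, Lamb1 and Lamc1 gave 0.09, 0.12 and 0.09, all with overlapping groups on the probe sets used. Lamb1 read 5.63 and 5.92 in WT and 5.94 and 5.86 in Baf60a LKO (SE 0.15, limma adjusted p = 0.784). Another probe set of Lamb1 read 3.62 and 3.98 in WT and 4.26 and 4.10 in Baf60a LKO, higher without overlap, at 0.38. Without WT replicate 1 Lamb1 was at -0.025 and Lamc1 at -0.0039, and Lamc1 was at -0.12 without Baf60a LKO replicate 1.

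Among glycoproteins and proteoglycans, Postn, Eln and Sparc gave the lowest values. Postn, a matricellular protein of activated fibroblasts, read 7.05 and 7.21 in WT and 6.81 and 6.78 in Baf60a LKO (-0.34 ± 0.12, interval -0.64 to -0.03, limma adjusted p = 0.458). Sparc, which binds collagen, read 8.63 and 8.68 in WT and 8.50 and 8.29 in Baf60a LKO (-0.26 ± 0.13, adjusted p = 0.554), with -0.22 and -0.28 on its other probe sets. On the probe sets used, the groups of both genes did not overlap. For Sparc they also did not overlap on the probe set at -0.22. They did on the one at -0.28, which read 5.68 and 4.82 in WT and 5.02 and 4.92 in Baf60a LKO. Eln, elastin, read 5.37 and 4.91 in WT and 4.75 and 4.93 in Baf60a LKO, where WT replicate 1 was the high array (-0.30 ± 0.19, adjusted p = 0.610, and -0.067 without it).

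Fn1, fibronectin, which hepatocytes secrete into plasma, read 11.95 and 12.06 in WT and 12.12 and 12.17 in Baf60a LKO (0.13 ± 0.12, interval -0.16 to 0.42, limma adjusted p = 0.718). Its groups did not overlap, but the gap was smaller than the spread within WT. Dcn, Lum and Bgn encode small proteoglycans that bind collagen fibrils. Dcn read 11.09 and 11.17 in WT and 11.12 and 11.10 in Baf60a LKO, a difference of -0.02 with an interval of -0.31 to 0.27. Lum, its neighbour on chromosome 10, differed by 0.06 and Bgn by 0.10, and both signs turned under other settings.

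Cross-linking enzymes were dim and did not separate the groups. Lox read 4.23 and 3.92 in WT and 3.90 and 4.06 in Baf60a LKO (-0.09 ± 0.15, limma adjusted p = 0.846). Loxl1 read 4.19 and 3.93 in WT and 3.65 and 4.30 in Baf60a LKO, with the Baf60a LKO arrays on both sides of WT (-0.08 ± 0.24). Both signs turned without WT replicate 1, and that of Loxl1 also without Baf60a LKO replicate 1.

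The genes that set matrix removal gave no call either. Timp1, the inhibitor most induced in liver fibrosis, read 3.87 and 3.60 in WT and 3.52 and 3.76 in Baf60a LKO, close to the bacterial controls (-0.09 ± 0.16, limma adjusted p = 0.849). Timp3, which stays bound to matrix, read 8.30 and 8.34 in WT and 8.22 and 8.34 in Baf60a LKO (-0.04 ± 0.12, adjusted p = 0.929). Timp2 differed by -0.17 ± 0.12, without overlap on the probe set used. On its other probe sets the groups overlapped, at 0.01, -0.18 and -0.11. Those at the level of the bacterial controls gave 0.05 and -0.21, also with overlap. Mmp14 encodes a membrane protease that activates the product of Mmp2, the gelatinase. Mmp14 read 7.40 and 7.46 in WT and 7.67 and 7.56 in Baf60a LKO (0.18 ± 0.12), but -0.020 with its probe sets averaged. Mmp2 read 5.21 and 5.18 in WT and 5.19 and 5.57 in Baf60a LKO (0.18 ± 0.16, adjusted p = 0.708). Only Baf60a LKO replicate 2 was high, and without it the difference was -0.0033.

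Genes of stellate cell activation did not move together. Tgfb1, the main fibrogenic cytokine, read 4.77 and 5.17 in WT and 5.43 and 5.23 in Baf60a LKO (0.36 ± 0.18, interval -0.08 to 0.80, limma adjusted p = 0.554), with -0.25 on its other probe set and 0.050 when probe sets were averaged. Acta2, smooth muscle actin, read 4.74 and 4.97 in WT and 4.63 and 4.61 in Baf60a LKO, below WT on both arrays (-0.23 ± 0.13, adjusted p = 0.584). Des, the desmin of rodent stellate cells, and Pdgfrb, their PDGF receptor, differed by -0.02 and -0.0017, with overlapping groups on the probe sets used. The other probe set of Des gave -0.23, also with overlap. That of Pdgfrb read 5.12 and 5.06 in WT and 4.93 and 4.69 in Baf60a LKO, lower without overlap, at -0.29. Ctgf, a target of TGF-beta and YAP, read 6.74 and 6.75 in WT and 6.43 and 7.37 in Baf60a LKO, on both sides of WT. Its difference of 0.15 ± 0.30 (adjusted p = 0.875) took the sign of whichever Baf60a LKO array was kept, 0.62 with replicate 1 left out and -0.31 with replicate 2 left out.

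The choice of probe set mattered for no call of a matrix gene, but it did matter for signs. Tgfb1 had the 4th largest absolute difference of the 35. It was higher without overlap on the probe set used and lower without overlap on its other probe set. The 35 genes were read by 77 probe sets, and in a fit over all 45037 probe sets none of the 77 passed (0 of 77, limma, lowest adjusted p 0.274). For 26 genes with more than 1 probe set, all probe sets had the same sign in 17 and both signs occurred in 8. In the remaining gene, Mmp2, the other probe set had equal group means, within 1e-06 on the log2 scale.

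**Figure D3:**
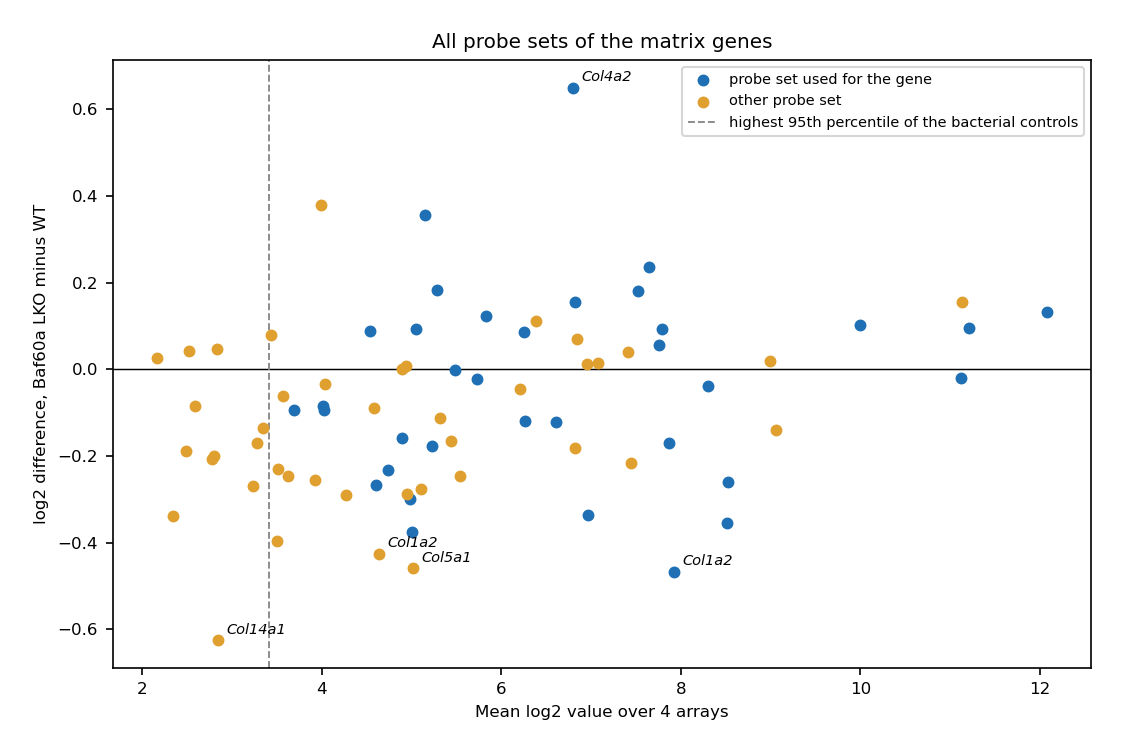
Each point is 1 probe set of a matrix gene, placed by its mean log2 value over 4 arrays and its difference of Baf60a LKO minus WT; blue points were used for the gene, yellow ones are its other probe sets, and the dashed line is the highest 95th percentile of the bacterial controls, 3.42. Col4a2 stands apart at 0.65, and the lowest point, Col14a1 at -0.62, lies left of the dashed line.

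Related genes outside the list were counted in 9 pathway lists of 149 genes, 140 of them measured. Of the 140, 1 rose and 0 fell (limma), beside 0.236% of all genes higher and 0.247% lower, and 10 were higher and 5 lower at an unadjusted p under 0.05. The gene that rose was Itga6, the alpha-6 integrin by which epithelial cells bind laminin. It read 4.25 and 4.36 in WT and 5.50 and 5.55 in Baf60a LKO, a 2.33-fold rise (1.22 ± 0.12, adjusted p = 0.0261), and both Baf60a LKO arrays lay well above WT. Its other probe set differed by 0.20, and with averaged probe sets the value was 0.71 (adjusted p = 0.0822). With any 1 array left out it no longer passed (adjusted p 0.114 to 0.422). The other 18 receptors did not pass, among them Sdc1 at 0.42 and Itga5 at 0.42, the latter with -0.27 on its next brightest probe set.

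Another collagen IV chain gave the clearest probe set. Col4a5, whose alpha-5 chain belongs to specialised basement membranes, read 4.66 and 4.28 in WT and 5.25 and 5.05 in Baf60a LKO on its brightest probe set (0.68 ± 0.17, limma adjusted p = 0.298). Its other probe set read 3.38 and 3.27 in WT and 5.99 and 5.96 in Baf60a LKO (2.65 ± 0.12, adjusted p = 0.00383 over all probe sets). The WT values there do not clear the bacterial controls, so the rise on this probe set, singled out after its values were seen, is given as at least 5.95-fold, against their 95th percentile. The 2 probe sets thus differ in size, and the call depends on which is used.

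Of the 17 further collagens 0 passed on the probe sets used (limma, 3 at an unadjusted p under 0.05), and of 11 further laminins and basement membrane proteins 0 passed (1 at an unadjusted p under 0.05). Col27a1, a fibrillar collagen of cartilage, differed by -0.65 ± 0.15 and by -0.50 on its second probe set (limma, adjusted p = 0.261 for the first). Lamb3, a chain of the laminin of epithelial hemidesmosomes, read 6.21 and 6.04 in WT and 5.19 and 4.83 in Baf60a LKO, below WT on both arrays (-1.12 ± 0.17, adjusted p = 0.101). Lamb3 passed after cyclic loess (0.0462), with array medians subtracted (0.0351) and with a trended and robust eBayes (0.0450).

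Signalling and processing lists gave no calls. Of 21 TGF-beta signalling genes 0 passed (limma, 1 at an unadjusted p under 0.05), with a median of -0.01. Smad7, the inhibitory SMAD that TGF-beta itself induces, was that 1, at 6.69 and 6.88 in WT and 7.54 and 7.32 in Baf60a LKO (0.65 ± 0.14, adjusted p = 0.221), and the TGF-beta receptor gene Tgfbr2 differed by -0.25 ± 0.11. Of 5 PDGF genes 0 passed (2 at an unadjusted p under 0.05, Pdgfa at 0.44 and Pdgfd at 0.39), with a median of 0.20. Of 16 genes of collagen processing 0 passed (2 at an unadjusted p under 0.05), 12 were positive and the median was 0.11. P4ha2, a subunit of the prolyl hydroxylase of collagen, read 4.64 and 5.41 in WT and 5.93 and 5.97 in Baf60a LKO (0.93 ± 0.26, adjusted p = 0.342), and 0.55 without WT replicate 1. Among 22 further proteases and inhibitors 0 passed (2 at an unadjusted p under 0.05), led by Mmp7 at -0.43 ± 0.12 and Mmp12 at -0.56 ± 0.20, the latter with 1 Baf60a LKO array, at 2.95, under the bacterial controls' 95th percentile. Of 17 further glycoproteins 0 passed (1 at an unadjusted p under 0.05, Spon2 at 0.49), and of 12 further cross-linkers and elastic fibre proteins 0 passed (0 at an unadjusted p under 0.05).

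**Figure D4:**
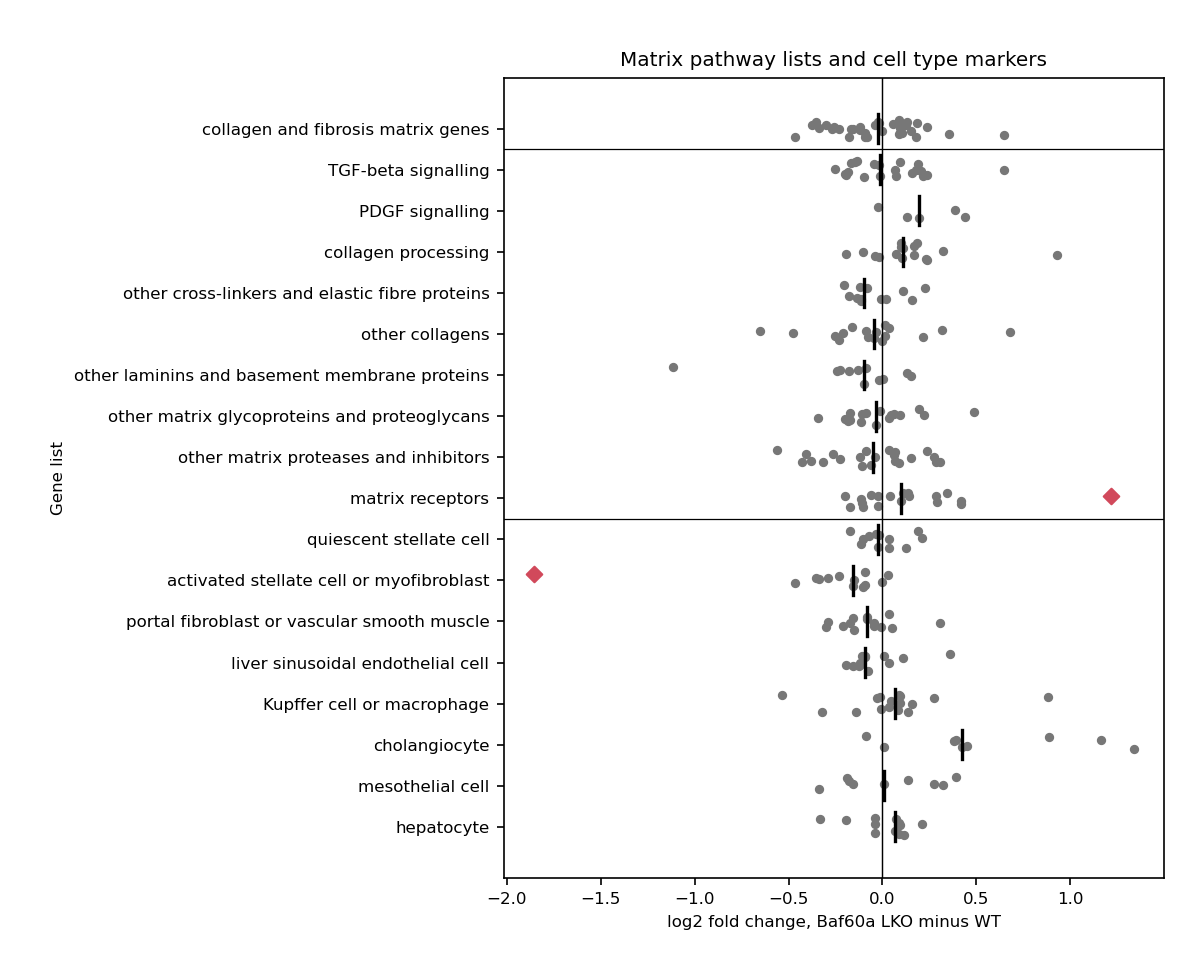
Each point is the log2 fold change (Baf60a LKO minus WT) of 1 gene, in rows for the matrix genes, 9 pathway lists and 8 lists of cell type markers; black bars are medians and red diamonds the genes that passed. Medians lie near 0 in most rows, the cholangiocyte row lies at 0.42, and the 2 diamonds are Itga6 at 1.22 and Tpm2 at -1.86.

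Markers of the cells that make matrix were set beside these values. Of 13 measured markers of activated stellate cells, 7 are matrix genes of the list, and of the other 6, 1 fell and 5 did not pass. The gene that fell was Tpm2, beta-tropomyosin of contractile cells, at 8.93 and 9.003 in WT and 6.97 and 7.26 in Baf60a LKO, a 3.62-fold fall (-1.86 ± 0.14, limma adjusted p = 0.0157). Its other probe sets gave -2.08, -1.07 and -0.65. With any 1 array left out it no longer passed (adjusted p 0.114 to 0.213). Tagln differed by -0.10 and the means of Myl9 were equal, while Cnn1 and Actg2, smooth muscle genes, read at the level of the bacterial controls. The summed linear level of the 6 was 784 and 862 in WT and 440 and 477 in Baf60a LKO. Without Tpm2, the other 5 summed to 295 and 349 in WT and 315 and 324 in Baf60a LKO, with overlapping groups.

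The other cell types gave 0 calls by limma. Portal fibroblast and smooth muscle markers had a median of -0.08 (14 genes, 0 at an unadjusted p under 0.05), sinusoidal endothelial markers -0.10 (13 genes, 0) and macrophage markers 0.07 (16 genes, 2). Hepatocyte markers had 0.07 (12 genes, 0) and mesothelial markers 0.01 (9 genes, 2). Cholangiocyte markers had a median of 0.42 over 9 genes (4 at an unadjusted p under 0.05, all higher), and their summed linear level was 136.4 and 157.5 in WT and 216.7 and 291.1 in Baf60a LKO. None of the 9 passed. The 6 higher without overlap were Pkhd1 at 1.34, Epcam at 1.17, Cldn7 at 0.89, Krt7 at 0.45, Krt19 at 0.39 and Sox9 at 0.38. Of the others, 1 was lower without overlap (Sctr, at -0.087) and 2 overlapped (Prom1, at 0.42, and Cftr, at 0.01). The part of this list's levels in the values of Col4a2, Col4a5 and Itga6 was not tested. Cftr read 2.18 and 1.99 in WT and 2.29 and 1.90 in Baf60a LKO, at the level of the bacterial controls. The WT values of Krt7, 3.31 and 3.22, also lay under the bacterial controls' 95th percentile.

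**Figure D5:**
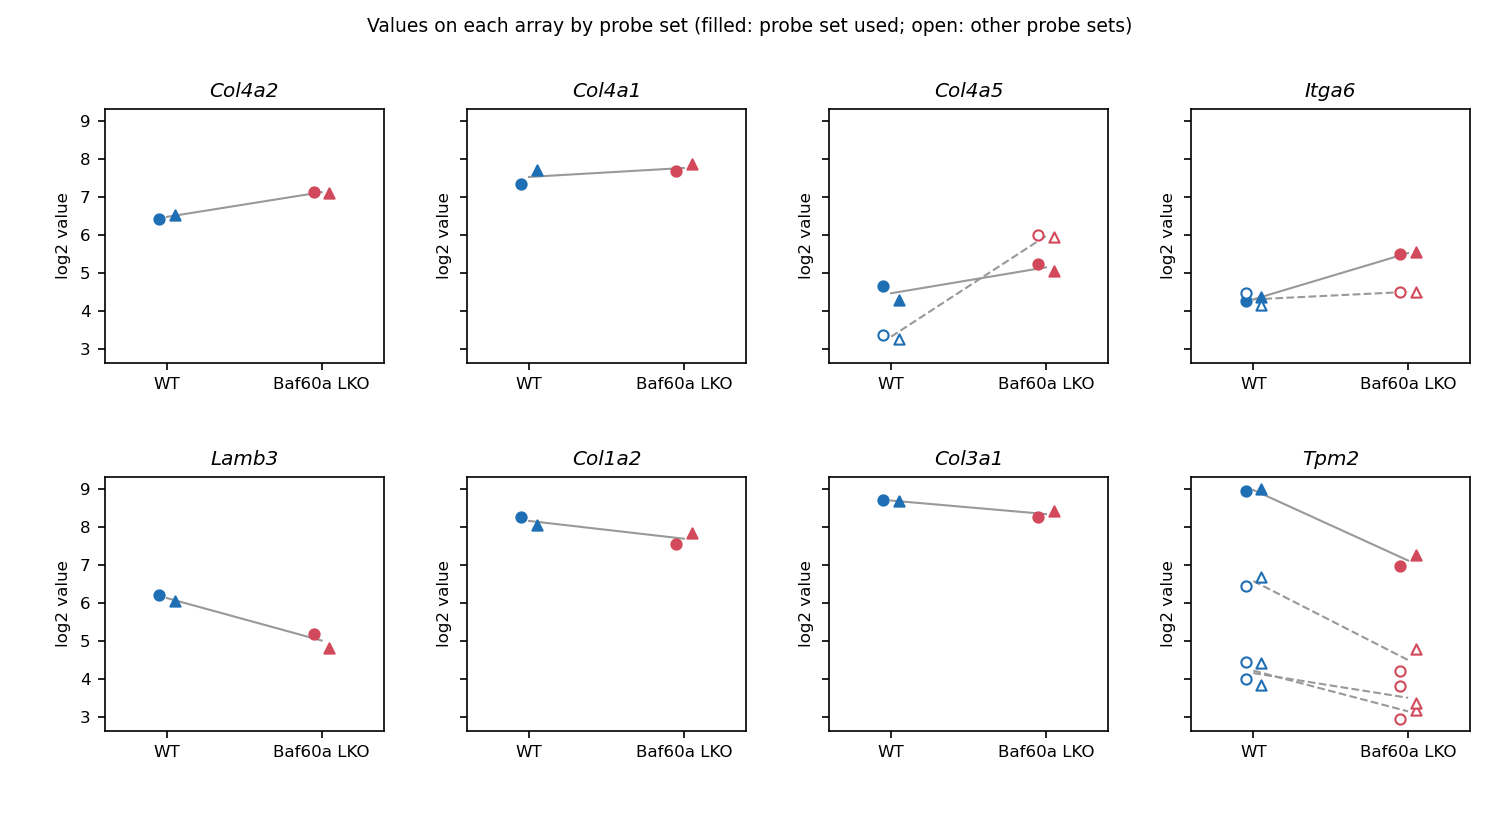
Panels give log2 values on each array for 8 genes, WT in blue and Baf60a LKO in red, circles replicate 1 and triangles replicate 2, with lines between group means; filled points and solid lines are the probe set used, open points and dashed lines the others. Col4a2 differs by 0.65 beside 0.24 for Col4a1, the open points of Col4a5 lie at 3.38 and 3.27 (blue) and 5.99 and 5.96 (red), and Tpm2 is lower in Baf60a LKO on all 4 probe sets.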

How the data were processed

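Each of 4 arrays held 1 pool of liver RNA, and the labelled genotype set the groups. The deposited values are log2 expression per probe set, and the submitters' processing notes name RMA, affy and limma without versions. The labels call replicates independent pools, so p-values reflect the spread between pools. Arrays have no read depth, and their number limits the precision.

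Of 45101 probe sets 64 controls were left out. The platform annotation gave 1 symbol to 34945, several to 932 and did not list 9160. Symbols were updated through RefSeq (GRCm38.p6, 34741 matched by Entrez number), and the brightest probe set stood for each of 18193 genes, with no filter on level. The deposited values name no genome build, so RefSeq coordinates are given only for its promoter windows. The test used lmFit and eBayes of limma 3.58.1 under R 4.3.3 (2-sided, Benjamini-Hochberg over all genes, 2 residual and 3.54 prior degrees of freedom), tested on simulated data. Errors are standard errors of this fit, with n = 2 in each genotype. Plots used matplotlib 3.10.9.

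The members and lists were chosen with earlier results of these data known. Named in full are genes past the threshold, the 12 members with the largest differences, the brightest of each role and members with an opposing probe set of 0.5 or more, and up to 4 genes of each other list. The 14 alternatives were 3 normalizations, the brighter 50% of genes, 3 other choices of probe set, a replicate block, an eBayes with trend and robust set, a threshold of 0.1 and each array left out.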

Additional observations from a re-analysis of the deposited data

How the results depend on the processing

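No matrix gene passed under any of the 14 alternatives (0 by limma in each, 2 to 6 at an unadjusted p under 0.05). The count of all genes passing, 88, was 142 after cyclic loess, 154 with array medians subtracted, 216 with a trended and robust eBayes, and 0 to 17 with 1 array left out, the 0 being without WT replicate 1. Genes at an unadjusted p under 0.05, 1853 or 10.2%, were 1630 (8.96%, 3 of them matrix genes) with that array left out and 5013 (27.6%, 6 matrix genes) with the other WT array left out. Leaving out Baf60a LKO replicate 1 gave 704 (3.87%, 2 matrix genes), and leaving out the other Baf60a LKO array gave 669 (3.68%, 3 matrix genes). Fewer arrays leave fewer degrees of freedom. The pool numbers in the labels do not state a pairing, and over genes the differences between replicates correlated at 0.14 between genotypes. With the replicate block 19 genes passed, and Itga6 and Tpm2 had limma adjusted p of 0.0994 and 0.0623. With 1 array left out Itga6 differed by 1.17 to 1.27 and Tpm2 by -2.00 to -1.71, neither past the threshold.

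The median of the matrix genes, -0.02, was -0.095 with averaged probe sets, -0.12 on the most variable probe sets and -0.11 to 0.024 with 1 array left out. Matrix genes above both WT values, 5, were 3 after quantiles, after loess and with averaged probe sets, and 6 to 12 with 1 array left out. Those below, 10, were 6 among the brighter 50% of genes, which held only 22 of the 35, and 12 to 20 with 1 array left out. Leaving out an array can only keep or add genes without overlap, so both counts could not fall there. Shares over all genes under these settings are not given, so the counts have no background beside them. The causes of the other shifts were not tested. Of the 35 genes 19 kept their sign under every alternative in which they were measured, among them Col4a2 and the fibrillar collagens. Some alternatives could not turn a sign: those changing only the test, the threshold or the genes kept, and arrays left out where groups did not overlap. For genes with 1 probe set, the choice of probe set could not either.

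Signs that turned were of genes that did not pass. After quantiles and loess Col6a3 was at -0.020 and -0.0080 and Lum at -0.031 and -0.039, and after loess Col14a1 was at -0.00056. With array medians subtracted Dcn was at 0.013, Des at 0.0093 and Pdgfrb at 0.031. With averaged probe sets and on the most variable probe set, Col14a1 was at -0.17 and -0.62, Lamc1 at -0.076 and -0.25, Bgn at -0.0062 and -0.14, and Mmp14 at -0.020 and -0.25. With 1 array left out, values ran from -0.18 to 0.35 for Col6a3, -0.056 to 0.24 for Col14a1, -0.025 to 0.27 for Lamb1, -0.12 to 0.30 for Lamc1, -0.060 to 0.021 for Dcn, -0.0068 to 0.12 for Lum, -0.24 to 0.057 for Lox, -0.41 to 0.24 for Loxl1, -0.23 to 0.037 for Timp1, -0.10 to 0.024 for Timp3, -0.0033 to 0.37 for Mmp2, -0.11 to 0.061 for Des, -0.32 to 0.31 for Pdgfrb and -0.31 to 0.62 for Ctgf. Signal near background limits Timp1.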
